A study of Mus musculus with 18 samples.

Results

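The genes described here are 10 targets of the transcription factor p53 and inhibitors of the cell cycle: Cdkn1a, Cdkn2a, Mdm2, Bbc3, Phlda3, Aen, Ccng1, Trp53inp1, Bax and Eda2r. They were picked by name, as the rows of the count table that carry these symbols, out of 54186 gene symbols in all. All 10 were among the 20244 genes that passed the filter on low counts. RNA had been sequenced from bulk pancreatic islets of 18 FVB mice aged 6 weeks, with 1 library for each mouse and 6 for each genotype. WT mice carried no transgene. The hIAPP mice expressed human islet amyloid polypeptide, and the rIAPP mice the rodent form, in each case from a transgene under the insulin II promoter, which is active in beta cells. The transgene is thus made in beta cells, while the RNA came from whole islets with their other cells. The labels do not say whether mice of 1 genotype shared a litter, so p-values measure the spread between these mice.

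p53 is kept scarce by MDM2, a ubiquitin ligase that marks it for destruction and whose own gene p53 switches on, a feedback loop. DNA damage and other stresses free p53 from MDM2, and it then raises genes that halt the cell cycle, damp growth signals or start apoptosis. CDK inhibitors of the CIP/KIP family (such as the p21 protein of Cdkn1a) and of the INK4 family (such as the p16Ink4a protein of Cdkn2a) block the kinases that drive cells into S phase. In beta cells Cdkn2a is held silent early in life by polycomb proteins and its level climbs with age. Several p53 targets, Cdkn1a and Bbc3 among them, can also be raised without p53 by other stress pathways.

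The stretches before the start sites of Cdkn1a, Ccng1 and Phlda3 are shown because these 3 genes were higher in both transgenic genotypes, and that of Aen because it was higher in rIAPP alone. The sequences are 250 bases upstream of RefSeq start sites on GRCm38.p6, 5′ to 3′ on the gene's strand, in lower case. They are of the reference strain and not of FVB. Capitals mark matches to the p53 response element (20 bases, 2 units of 10 without a spacer, at most 2 mismatches outside the 2 cores) or to a single p53 unit (10 bases, no mismatch).
Cdkn1a, distal start site, chr17:29090729-29090978, plus strand: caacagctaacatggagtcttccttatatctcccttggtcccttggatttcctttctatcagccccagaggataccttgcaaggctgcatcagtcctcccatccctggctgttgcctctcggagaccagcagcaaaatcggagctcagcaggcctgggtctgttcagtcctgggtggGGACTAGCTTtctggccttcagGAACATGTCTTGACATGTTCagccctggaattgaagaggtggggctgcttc
Cdkn1a, proximal start site, chr17:29093519-29093768, plus strand: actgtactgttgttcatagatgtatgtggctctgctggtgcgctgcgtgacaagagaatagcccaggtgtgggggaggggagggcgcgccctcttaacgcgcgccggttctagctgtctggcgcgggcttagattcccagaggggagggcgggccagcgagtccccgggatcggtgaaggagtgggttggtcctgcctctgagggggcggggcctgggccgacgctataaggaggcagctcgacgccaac
Ccng1, chr11:40755287-40755536, minus strand: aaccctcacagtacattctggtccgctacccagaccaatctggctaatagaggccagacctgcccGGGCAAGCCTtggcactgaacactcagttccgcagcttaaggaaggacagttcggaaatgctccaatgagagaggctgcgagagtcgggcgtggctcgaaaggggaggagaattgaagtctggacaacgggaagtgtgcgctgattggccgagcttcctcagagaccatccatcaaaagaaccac
Phlda3, chr1:135765835-135766084, plus strand: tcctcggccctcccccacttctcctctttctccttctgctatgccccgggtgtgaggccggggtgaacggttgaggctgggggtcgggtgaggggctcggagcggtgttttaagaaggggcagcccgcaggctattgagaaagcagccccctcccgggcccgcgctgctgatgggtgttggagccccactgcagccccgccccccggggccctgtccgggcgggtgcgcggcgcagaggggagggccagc
Aen, second start site, chr7:78895808-78896057, plus strand: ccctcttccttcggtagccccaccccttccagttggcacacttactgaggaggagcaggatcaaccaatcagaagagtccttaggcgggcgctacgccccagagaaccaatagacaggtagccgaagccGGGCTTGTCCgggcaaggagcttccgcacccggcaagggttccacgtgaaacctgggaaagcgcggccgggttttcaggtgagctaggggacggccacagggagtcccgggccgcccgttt
Of the 10 genes, 9 had such windows, 14 in all, and Trp53inp1 had none. The windows searched were 300 bases long and also held the first 50 bases after the start. The full response element was in 1 window, that of the distal Cdkn1a start site, 51 to 32 bases before it, with 1 mismatch (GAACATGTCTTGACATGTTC). Of all 32851 windows of the reference, 52 (0.158%) held such an element. A single unit, whose pattern reads the same on both strands, was in 6 of the 14 windows, those of Cdkn1a, Ccng1, Mdm2, Bax and Aen, and in 8.36% of all windows. Of the 2 such units upstream of Cdkn1a, 1 overlaps the full element. The 2 Aen windows overlap and share 1 unit. No window held TGATGNAA, a motif bound by ATF4 and CHOP with C/EBP partners, on either strand, against 3.97% of all windows. The windows of Phlda3, Bbc3, Eda2r and Cdkn2a held no match to any of these motifs.

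Levels are in CPM, counts set to a common library size by the library total and a TMM factor that evens out a few very abundant RNAs. Library totals were 109596508 to 166233419 estimated counts, so even Cdkn2a, with 11 to 41 counts per library, lay above the 3 counts taken as the limit of detection. Changes were tested in edgeR's quasi-likelihood fit of all 18 libraries, with Benjamini-Hochberg adjustment over all 20244 genes. A gene was called at an adjusted p under 0.05. Islet markers were abundant in each library: Ins1, Ins2 and Iapp with 7 further beta cell genes summed to 126592 to 158597 CPM in WT, 68720 to 126460 in hIAPP and 73998 to 101938 in rIAPP. Markers of digestive acinar cells (21 measured, none at 0 in any library) summed to 845 to 3490 CPM in WT, 2250 to 14889 in hIAPP and 3805 to 16516 in rIAPP. Macrophage markers (15 measured, none at 0) summed to 203 to 248 CPM in WT, 424 to 896 in hIAPP and 159 to 183 in rIAPP. Stellate cell and fibroblast markers (10 measured, none at 0) summed to 816 to 1156 CPM in WT, 1098 to 2024 in hIAPP and 1425 to 2302 in rIAPP. In bulk tissue, fewer cells of a type and less RNA per cell cannot be told apart.

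Per kilobase of annotated exon, the 10 genes spanned a wide range of levels in WT islets. Ccng1 came first at 36.0 ± 2.40 CPM per kb (SD, n = 6), followed by Trp53inp1 at 16.5 ± 1.66. Mdm2 (12.2 ± 0.738) and Bax (11.7 ± 0.786) came next, and their ranges over the libraries overlapped. Aen stood at 3.40 ± 0.514 CPM per kb, Bbc3 at 2.16 ± 0.423, Cdkn1a at 1.64 ± 0.537 and Phlda3 at 1.45 ± 0.264. Of these, Bbc3 overlapped Cdkn1a, and Cdkn1a overlapped Phlda3. Eda2r (0.379 ± 0.107) and Cdkn2a (0.205 ± 0.0243) closed the order without overlap. Trp53, the gene of p53 itself, had 1.97 ± 0.269 CPM per kb. In hIAPP islets Cdkn1a stood in place 5 at 3.53 ± 1.33 CPM per kb, with a range that overlapped that of Aen.

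**Figure D1:**
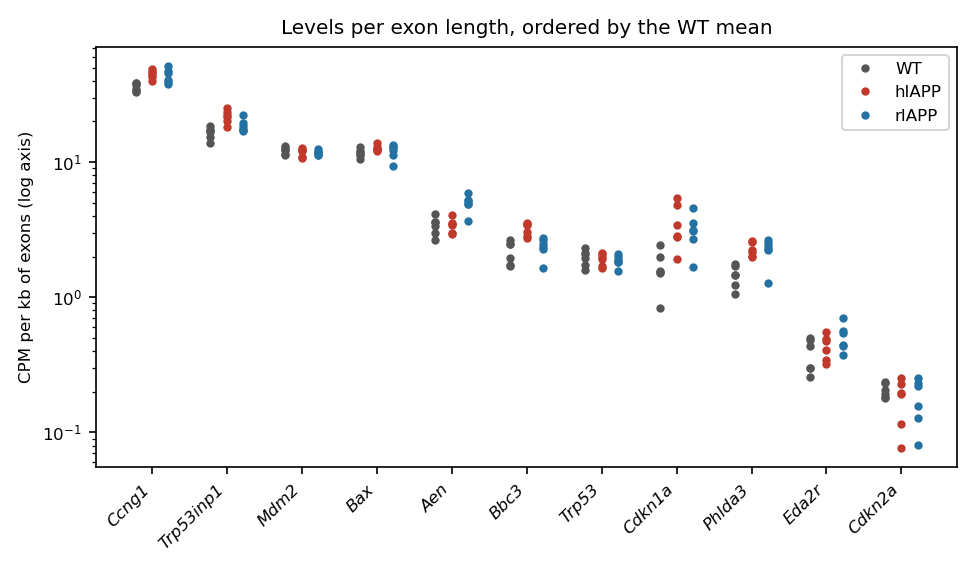
Level of each gene per kilobase of annotated exon (CPM per kb, log axis), 1 point per library, for WT, hIAPP and rIAPP, ordered by the WT mean, with Trp53 added. Ccng1 lies highest and Cdkn2a lowest in all 3 genotypes, and Cdkn1a shows the wide spread described in the text.

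In hIAPP islets, 5 of the 10 genes rose against WT (Cdkn1a, Phlda3, Bbc3, Trp53inp1 and Ccng1), none fell and 5 did not pass. Of all tested genes, 15.8% were called, 8.31% higher and 7.53% lower. In rIAPP islets, 4 of the 10 rose against WT (Cdkn1a, Phlda3, Aen and Ccng1), none fell and 6 did not pass, where 26.8% of all tested genes were called, 14.1% higher and 12.6% lower. Between the transgenic genotypes, Bbc3 was higher and Aen lower in hIAPP, and 8 did not pass, with 27.6% of all tested genes called, 13.5% higher and 14.1% lower. For 3 of the 10 (Bbc3, Phlda3 and Ccng1), every hIAPP library lay above every WT library, as for 3.74% of all tested genes. Only Bbc3 lay so above rIAPP, where 6.52% of all tested genes did. None of the 10 lay wholly apart in rIAPP against WT, where 8.13% of all lay wholly higher and 6.75% wholly lower. The median log2 fold change of the 10 was 0.25 for hIAPP against WT, where that of all tested genes was -0.01, and 0.22 for rIAPP against WT, where it was -0.01. Both comparisons share the WT libraries. Scaling by library totals alone moved the median of all genes by 0.12 in both, and turned the split of all calls from 1683 higher and 1525 lower to 3139 and 480 for hIAPP, and from 2860 and 2557 to 4554 and 1404 for rIAPP. With it, Bax in hIAPP (adjusted p = 0.0326, edgeR) and Trp53inp1 and Eda2r in rIAPP (adjusted p = 0.0219 and 0.0339, edgeR) passed too. Adding the acinar score (the mean log2 CPM of the acinar markers) as a covariate left 2 of the 10 higher in hIAPP than in WT (Bbc3 and Ccng1) and 1 in rIAPP (Ccng1).

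**Figure D2:**
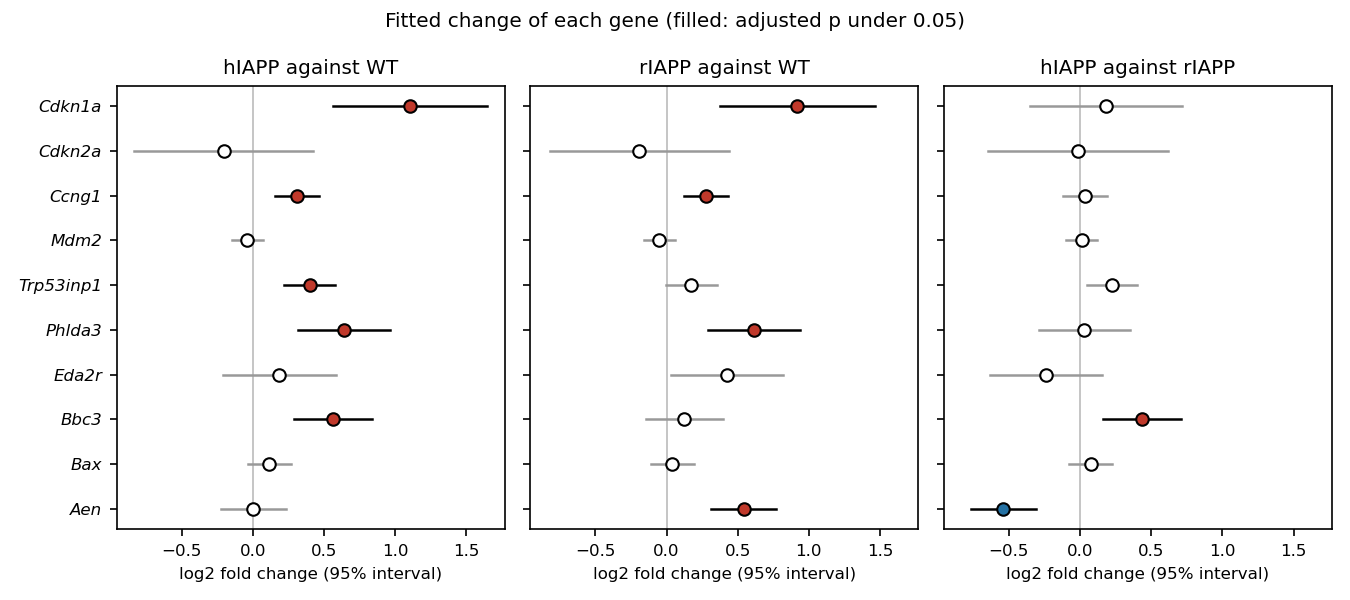
Fitted log2 fold change of each gene with its 95% interval (x axis) in the 3 comparisons. Filled points passed an adjusted p of 0.05 (red higher, blue lower). Cdkn1a, Ccng1 and Phlda3 are filled in both comparisons with WT, and Bbc3 and Aen in that of hIAPP with rIAPP.

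Cdkn1a (chromosome 17, 29090976 to 29100727, plus strand) encodes p21, which binds cyclin and CDK complexes and halts cells in G1. Its level ran from 2.94 to 8.63 CPM in WT libraries (median 5.52), from 6.81 to 19.2 in hIAPP (median 11.1) and from 5.96 to 16.2 in rIAPP (median 11.0). The hIAPP and WT ranges touched only through hIAPP 4, and the rIAPP and WT ranges only through rIAPP 6. Cdkn1a rose by a log2 of 1.10 ± 0.26 in hIAPP (SE, 95% interval 0.56 to 1.65, edgeR adjusted p = 0.00675) and by 0.92 ± 0.26 in rIAPP (0.38 to 1.46, edgeR adjusted p = 0.0112). Between hIAPP and rIAPP the difference was 0.18 ± 0.26 (95% interval -0.35 to 0.72, edgeR adjusted p = 0.649).

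The highest Cdkn1a levels were those of hIAPP 5 (19.2 CPM) and hIAPP 6 (17.2 CPM). These libraries also had the highest acinar marker sums of their genotype (8419 and 14889 CPM) and the lowest beta cell sums (68720 and 84221 CPM). Their macrophage sums (896 and 752 CPM) and stellate sums (2016 and 2024 CPM) were the highest of hIAPP too. The stellate sum was 1974 CPM in hIAPP 4, which had the lowest Cdkn1a level of hIAPP. The part of these cell types in the Cdkn1a level was not tested one by one. In rIAPP the highest Cdkn1a level was in rIAPP 1 (16.2 CPM, acinar sum 12128) and the highest acinar sum in rIAPP 2 (16516, with Cdkn1a at 11.1 CPM). In WT, WT 4 had the highest acinar sum (3490) and a Cdkn1a level of 5.54 CPM. Without hIAPP 5 and hIAPP 6 the Cdkn1a value in hIAPP was 0.74 (edgeR adjusted p = 0.0799). With the acinar score as a covariate it was 0.89 in hIAPP (edgeR adjusted p = 0.195) and 0.66 in rIAPP (edgeR adjusted p = 0.388). An antisense gene model overlaps a Cdkn1a exon, and no source used here says whether counting used strand.

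Cdkn2a (chromosome 4, 89274471 to 89294653, minus strand) encodes p16Ink4a, which inhibits CDK4 and CDK6, and from another first exon p19Arf, which holds MDM2 away from p53. The table counts both together. The level ran from 0.211 to 0.275 CPM in WT (median 0.233), from 0.0894 to 0.296 in hIAPP (median 0.229) and from 0.0954 to 0.297 in rIAPP (median 0.222). The medians lay close together and the transgenic groups spread wider, with 11 counts in hIAPP 5 and 13 in rIAPP 5. The differences from WT were -0.21 ± 0.30 in hIAPP (95% interval -0.83 to 0.42, edgeR adjusted p = 0.724) and -0.19 ± 0.30 in rIAPP (-0.82 to 0.44, edgeR adjusted p = 0.708). The upper bounds correspond to a 1.34-fold level in hIAPP and 1.35-fold in rIAPP.

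Ccng1 (chromosome 11, 40748552 to 40755311, minus strand) encodes cyclin G1, which brings the phosphatase PP2A to MDM2. It had 116 to 135 CPM in WT (median 126), 139 to 170 in hIAPP (median 157) and 133 to 180 in rIAPP (median 151). All hIAPP libraries lay above all WT libraries, and 5 of the 6 rIAPP libraries did, with rIAPP 6 within the WT range. The rise was small and tight: 0.31 ± 0.07 in hIAPP (95% interval 0.16 to 0.47, edgeR adjusted p = 0.00747) and 0.27 ± 0.07 in rIAPP (0.12 to 0.43, edgeR adjusted p = 0.00871). With the acinar score as a covariate the values were 0.42 (edgeR adjusted p = 0.0185) and 0.42 (edgeR adjusted p = 0.0198). Both still passed, at larger adjusted p-values than without that covariate.

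**Figure D3:**
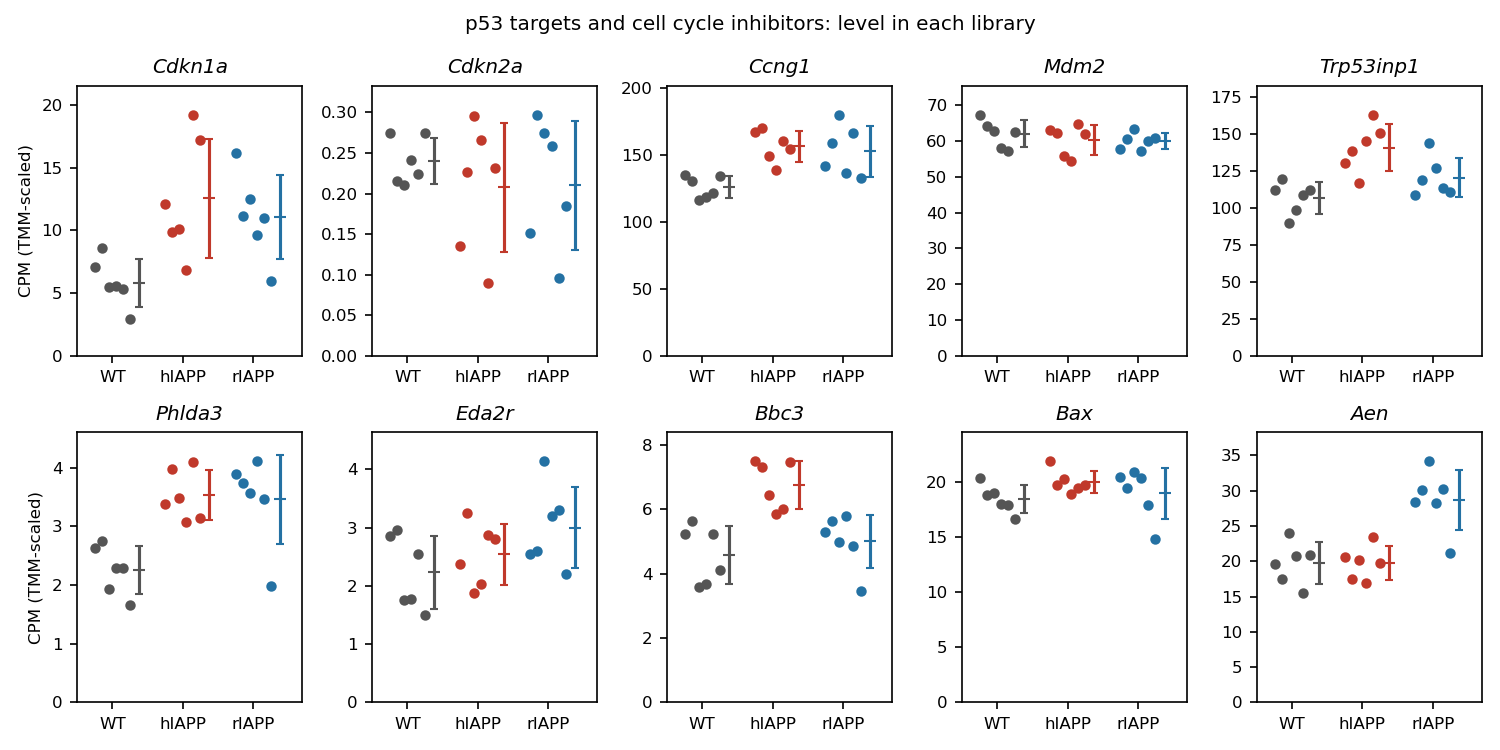
Level of each gene in CPM (y axis, from 0) in the 6 WT, 6 hIAPP and 6 rIAPP libraries, with replicates 1 to 6 from left to right in a group and the mean ± SD at its right. All hIAPP points of Bbc3, Phlda3 and Ccng1 lie above all WT points, as for 3.74% of all tested genes. In rIAPP the last point (rIAPP 6) lies low in most panels.

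Mdm2 and Trp53inp1 act on p53 itself. Mdm2 (chromosome 10, 117688875 to 117710758, minus strand) had 57.3 to 67.2 CPM in WT (median 62.6), 54.3 to 64.7 in hIAPP (median 62.0) and 57.1 to 63.2 in rIAPP (median 60.2). The 3 ranges overlapped almost entirely. Its differences from WT were -0.04 ± 0.05 in hIAPP (95% interval -0.15 to 0.07) and -0.05 ± 0.05 in rIAPP (-0.16 to 0.06), with edgeR adjusted p = 0.681 and 0.542. The upper bounds correspond to 1.05-fold in hIAPP and 1.04-fold in rIAPP, among the narrowest intervals of the 10. Scaling by library totals alone gave 0.08 and 0.07, of the opposite sign and again not passing. Trp53 likewise did not pass, with 7.98 ± 1.09 CPM in WT, 7.72 ± 0.814 in hIAPP and 7.53 ± 0.714 in rIAPP (SD, n = 6, edgeR adjusted p = 0.806 and 0.578 against WT). p53 is controlled mostly through its protein, which these data do not measure.

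Trp53inp1 (chromosome 4, 11156431 to 11174379, plus strand) encodes a stress-induced nuclear protein that promotes the phosphorylation of p53 by the kinase HIPK2. It had 90.04 to 120 CPM in WT (median 110), 117 to 163 in hIAPP (median 142) and 109 to 144 in rIAPP (median 116). In hIAPP, 5 of 6 libraries lay above every WT library, hIAPP 3 being the exception. Trp53inp1 rose by 0.40 ± 0.09 in hIAPP (95% interval 0.22 to 0.58, edgeR adjusted p = 0.00351). In rIAPP the value was 0.17 ± 0.09 (95% interval -0.0048 to 0.35, edgeR adjusted p = 0.150). The difference between hIAPP and rIAPP was 0.22 ± 0.09 (95% interval 0.05 to 0.40, edgeR adjusted p = 0.0561), which fell just short of the threshold and passed in DESeq2 (adjusted p = 0.0368), without hIAPP 3 (edgeR adjusted p = 0.0201) and without rIAPP 3 (edgeR adjusted p = 0.0172). With the acinar score as a covariate the hIAPP value was 0.37 (edgeR adjusted p = 0.0949).

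Phlda3 and Eda2r work at the cell surface and in growth signalling. Phlda3 (chromosome 1, 135766119 to 135769136, plus strand) encodes a small PH-domain protein that keeps the kinase AKT off the membrane and is known as a suppressor of islet cell tumours. It had 1.66 to 2.74 CPM in WT (median 2.29), 3.08 to 4.10 in hIAPP (median 3.43) and 1.98 to 4.10 in rIAPP (median 3.65). The hIAPP and WT libraries did not overlap, and in rIAPP only rIAPP 6 (1.98 CPM) fell within the WT range. The rises were near equal, 0.64 ± 0.15 in hIAPP (95% interval 0.32 to 0.96, edgeR adjusted p = 0.00758) and 0.61 ± 0.15 in rIAPP (0.29 to 0.94, edgeR adjusted p = 0.00497). Between the transgenic genotypes the 95% interval was -0.29 to 0.35. With the acinar score as a covariate the values were 0.68 (edgeR adjusted p = 0.0897) and 0.66 (edgeR adjusted p = 0.117).

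Eda2r (chromosome X, 97333840 to 97377216, minus strand) encodes a TNF receptor family member that binds a form of ectodysplasin. It had 1.51 to 2.95 CPM in WT (median 2.16), 1.88 to 3.25 in hIAPP (median 2.59) and 2.21 to 4.13 in rIAPP (median 2.90), and the groups overlapped. It did not pass in hIAPP (0.18 ± 0.19, 95% interval -0.21 to 0.58, edgeR adjusted p = 0.591) or in rIAPP (0.43 ± 0.19, 0.03 to 0.82, edgeR adjusted p = 0.108). Among WT libraries, WT 3, 4 and 6 were lowest for Eda2r (1.51 to 1.77 CPM) and for Bbc3 (3.59 to 4.12 CPM). Of 7 other genes of ectodysplasin signalling, 2 rose in hIAPP (Eda and Traf6) and 1 fell (Tnfrsf19), while 3 rose in rIAPP (Eda, Traf3 and Traf1) and 1 fell (Edaradd). The shares called were 42.9% and 57.1%, where 15.8% and 26.8% of all tested genes were called. The ligand gene Eda rose by 0.76 ± 0.10 in rIAPP, from 2.47 to 4.17 CPM (edgeR adjusted p = 6.66e-06), and by 0.32 ± 0.10 in hIAPP (edgeR adjusted p = 0.0354).

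Bbc3, Aen and Bax act in apoptosis, and Bbc3 and Aen differed between the transgenic genotypes while Bax did not pass. Bbc3 (chromosome 7, 16308393 to 16318205, plus strand) encodes PUMA, a BH3-only protein that unleashes the pore formers BAX and BAK. It had 3.59 to 5.65 CPM in WT (median 4.68), 5.84 to 7.49 in hIAPP (median 6.89) and 3.47 to 5.78 in rIAPP (median 5.15). Every hIAPP library lay above every WT and every rIAPP library, while WT and rIAPP overlapped. The rise in hIAPP was 0.56 ± 0.13 against WT (95% interval 0.29 to 0.83, edgeR adjusted p = 0.00647) and 0.43 ± 0.13 against rIAPP (0.16 to 0.71, edgeR adjusted p = 0.0172). In rIAPP against WT the value was 0.13 ± 0.13 (-0.15 to 0.40, edgeR adjusted p = 0.545). With the acinar score as a covariate the hIAPP value against WT was 0.66 (edgeR adjusted p = 0.0486), and without hIAPP 5 and hIAPP 6 it was 0.57 (edgeR adjusted p = 0.0229). Macrophage marker sums were higher in the same libraries. Of 15 markers, 13 were called higher and 1 lower against WT, and 13 higher and 2 lower against rIAPP. Within hIAPP, the highest macrophage sum was in hIAPP 5 (896 CPM, with Bbc3 at 6.02 CPM). The highest Bbc3 level was in hIAPP 1 (7.49 CPM, macrophage sum 469). The part of macrophages in the Bbc3 level was not tested.

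Aen (chromosome 7, 78895854 to 78911209, plus strand) encodes an exonuclease that p53 induces and that helps digest DNA in apoptosis. It had 15.4 to 24.0 CPM in WT (median 20.2), 16.9 to 23.5 in hIAPP (median 19.99) and 21.2 to 34.1 in rIAPP (median 29.2). WT and hIAPP covered the same range, and 5 of 6 rIAPP libraries lay above both, all but rIAPP 6. Aen rose by 0.54 ± 0.11 in rIAPP against WT (95% interval 0.31 to 0.77, edgeR adjusted p = 7.78e-04) and was lower by a log2 of -0.54 ± 0.11 in hIAPP than in rIAPP (-0.77 to -0.31, edgeR adjusted p = 8.58e-04). In hIAPP against WT the value was 0.00 ± 0.11 (95% interval -0.23 to 0.23, edgeR adjusted p = 0.994). With the acinar score as a covariate, the rIAPP value against WT was 0.48 (edgeR adjusted p = 0.0882) and that of hIAPP against rIAPP -0.53 (edgeR adjusted p = 0.00207). Endothelial markers were also higher in rIAPP, where all 10 measured were called higher than in WT. Their sums were 860 to 969 CPM in rIAPP, 686 to 778 in WT and 612 to 709 in hIAPP. In hIAPP against WT, 3 of the 10 were called lower and none higher, while Aen did not pass. The part of endothelial cells in the Aen level was not tested.

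Bax (chromosome 7, 45461697 to 45466898, minus strand) encodes the pore former that opens the outer mitochondrial membrane. It had 16.6 to 20.3 CPM in WT (median 18.4), 18.9 to 21.9 in hIAPP (median 19.7) and 14.8 to 20.9 in rIAPP (median 19.9). All 6 hIAPP libraries lay above the WT median, but the ranges overlapped. Neither difference passed, 0.12 ± 0.07 in hIAPP (95% interval -0.04 to 0.27, edgeR adjusted p = 0.320) and 0.04 ± 0.07 in rIAPP (-0.11 to 0.19, edgeR adjusted p = 0.745). A gene model on the same strand, Gm45808, shares exon sequence with Bax, and its own row held 0 to 32.9 counts per library.

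Single libraries set part of the spread. rIAPP 6 was the lowest rIAPP library for 7 of the 10 genes (all but Cdkn2a, Mdm2 and Trp53inp1), with a median of -0.38 log2 units from the genotype means. Its stellate marker sum (1425 CPM) was the lowest of rIAPP and its mean beta cell score (10.1 log2 CPM) the highest. By summed beta cell markers it came after rIAPP 4 (101275 against 101938 CPM). The part of these cell types was not tested. hIAPP 4 was the lowest hIAPP library for 7 genes as well, with a median of -0.18. hIAPP 5 was the highest for 5 genes, rIAPP 3 for 6 and WT 2 for 5. No call among the 10 for either transgenic genotype against WT was lost when any single library was left out.

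**Figure D4:**
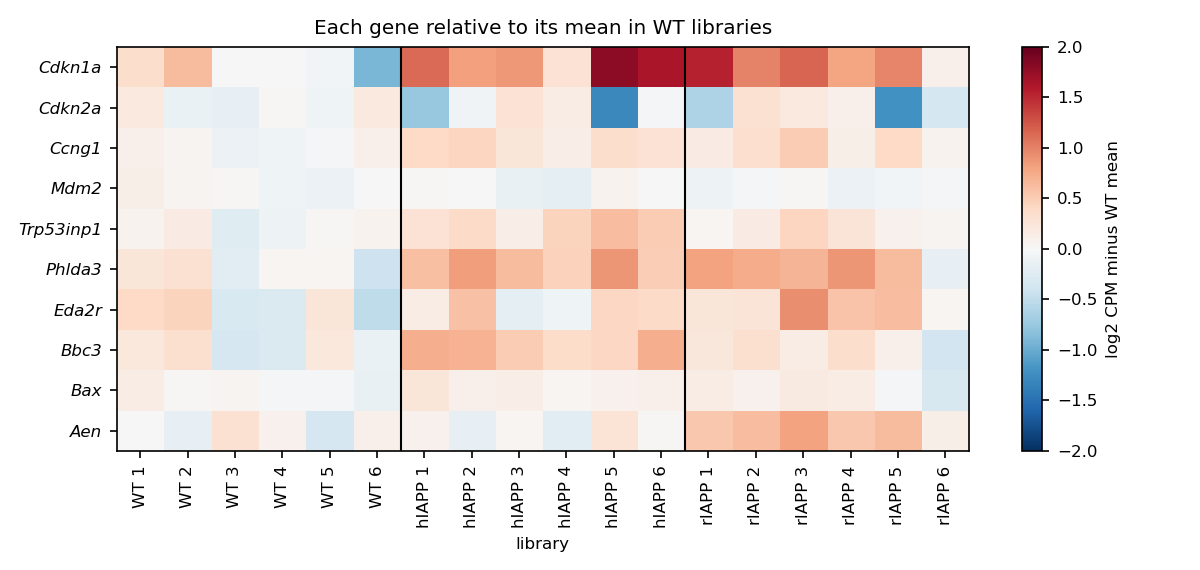
Log2 CPM of each gene in each of the 18 libraries minus its mean over the WT libraries (color scale, red higher, blue lower). The Cdkn1a row is above 0 in all hIAPP and rIAPP libraries, palest in hIAPP 4 and rIAPP 6, the Aen row is red in rIAPP 1 to 5, and the Mdm2 row is pale throughout.

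Other textbook p53 targets moved in both directions, with more called higher than lower in each transgenic genotype against WT. Of 39 tested, 7 rose, 3 fell and 29 did not pass in hIAPP against WT (median log2 fold change 0.06), and 11 rose, 2 fell and 26 did not pass in rIAPP against WT (median 0.10). The shares called were 25.6% and 33.3%, where 15.8% and 26.8% of all tested genes were called. The shares called higher were 17.9% and 28.2%, where 8.31% and 14.1% of all tested genes were called higher. Of all tested genes, 7.53% and 12.6% were called lower. Sesn2, a stress-induced regulator of mTORC1, rose by 0.76 ± 0.10 in hIAPP and 0.87 ± 0.10 in rIAPP (edgeR adjusted p = 4.27e-05 and 1.62e-06). Gdf15, a secreted stress cytokine, rose by 2.31 ± 0.34 and 1.44 ± 0.34 (edgeR adjusted p = 1.21e-04 and 0.00298), from 0.158 CPM in WT to 0.792 and 0.431. Pmaip1, which encodes the BH3-only protein NOXA, rose by 0.73 ± 0.22 and 0.66 ± 0.22 (edgeR adjusted p = 0.0294 and 0.0314). Tigar, a phosphatase that slows glycolysis, fell by 0.32 ± 0.07 on the log2 scale in hIAPP and by 0.74 ± 0.07 in rIAPP (edgeR adjusted p = 0.00627 and 2.36e-07). Perp, a membrane protein of cell junctions, rose by 0.70 ± 0.08 in rIAPP and 0.28 ± 0.08 in hIAPP (edgeR adjusted p = 1.32e-06 and 0.0227) and differed between them (-0.42 ± 0.08, edgeR adjusted p = 4.79e-04).

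ATF4 and CHOP are transcription factors of the integrated stress response. Of 28 genes made up of both factors and their targets, 23 rose and none fell in hIAPP, where 8.31% of all tested genes rose. In rIAPP 22 rose and 2 fell, where 14.1% of all rose and 12.6% fell, and the medians were 0.56 and 0.46. That list and the list of other p53 targets share 3 genes, Sesn2, Gdf15 and Ddit4. Trib3, a pseudokinase induced by CHOP, rose by 3.02 in hIAPP (edgeR adjusted p = 2.48e-06). Among 18 tested regulators of p53, none rose in hIAPP by edgeR (1 by DESeq2, 2 by limma-voom) and 2 fell, the kinase gene Atr (-0.27 ± 0.05, edgeR adjusted p = 0.00107) and Usp7, a deubiquitinase of MDM2 (-0.24 ± 0.05, edgeR adjusted p = 0.00210). In rIAPP none rose and 4 fell (Atm, Atr, Sirt1 and Trp53bp1), with the damage kinase gene Atm at -0.35 ± 0.06 (edgeR adjusted p = 2.88e-04). Between hIAPP and rIAPP, Atm, Chek2, Ep300 and Crebbp were higher and Usp7 lower in hIAPP. The shares of the regulators called, 11.1% in hIAPP against WT, 22.2% in rIAPP against WT and 27.8% between hIAPP and rIAPP, lay near or below those of all tested genes (15.8%, 26.8% and 27.6%).

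The other CDK inhibitor genes moved little. Of Cdkn1b, Cdkn1c, Cdkn2b, Cdkn2c and Cdkn2d, none passed in hIAPP against WT by edgeR (1 at an unadjusted p under 0.05, 0 by DESeq2, 1 higher by limma-voom), and all 5 values were above 0 with a median of 0.05. Cdkn1c, which encodes p57, rose in rIAPP against WT (0.33 ± 0.11, edgeR adjusted p = 0.0296), and Cdkn2c, which encodes p18Ink4c, was higher in hIAPP than in rIAPP (0.28 ± 0.09, edgeR adjusted p = 0.0250). Each was a share of 20%, where 26.8% and 27.6% of all tested genes were called. Among 14 cyclins, CDKs and pocket proteins of G1, Ccnd1, the cyclin D1 gene, changed by a log2 of -0.43 ± 0.13 in both hIAPP and rIAPP (edgeR adjusted p = 0.0232 and 0.0135). Ccnd2, known as a D cyclin gene that mouse beta cells need to expand, fell by 0.78 ± 0.09 on the log2 scale in rIAPP, from 764 to 444 CPM (edgeR adjusted p = 8.82e-07), and was at 740 CPM in hIAPP. E2f1 and Ccnd3 rose in hIAPP (0.34 ± 0.08 and 0.27 ± 0.07, edgeR adjusted p = 0.00780 and 0.0105). Cdk6 and E2f3 rose in rIAPP against WT (0.79 ± 0.13 and 0.46 ± 0.10, edgeR adjusted p = 7.17e-05 and 0.00175). Rb1 changed there by -0.16 ± 0.05 (edgeR adjusted p = 0.0282). Of the 14, 21.4% were called in hIAPP and 35.7% in rIAPP against WT, where 15.8% and 26.8% of all tested genes were. Of 20 genes of S phase and mitosis, none passed in hIAPP against WT by edgeR (2 at an unadjusted p under 0.05, 0 by DESeq2, 1 higher by limma-voom), with 15 values above 0 and a median of 0.15. In rIAPP against WT, Mcm2 and Mcm4, subunits of the replicative helicase, rose and Pcna fell, with a median of -0.32. The share called there was 15%, below the 26.8% of all tested genes. Between hIAPP and rIAPP, 16 of the 20 values were above 0, with a median of 0.49. Aurkb and Rrm2 were higher, and Mcm2 and Mcm4 lower, in hIAPP than in rIAPP. That was a share of 20%, where 27.6% of all tested genes were called.

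Around Bbc3 and Bax, 2 of 18 BCL2 family and caspase genes rose in hIAPP and 1 fell. The share called was 16.7%, near the 15.8% of all tested genes. Bmf and Hrk, which encode other BH3-only proteins, rose by 0.47 ± 0.08 and 1.39 ± 0.36 (edgeR adjusted p = 2.60e-04 and 0.0115), and the cytochrome c gene Cycs changed by -0.26 ± 0.07 (edgeR adjusted p = 0.0188). In rIAPP, 4 rose (Bmf, Bcl2, Bcl2l1 and Bak1) and 4 fell (Bik, Bok, Casp9 and Xiap). The share called in rIAPP was 44.4%, where 26.8% of all tested genes were called. There Bmf rose by 0.60 ± 0.08 (edgeR adjusted p = 4.57e-06), and so did the survival genes Bcl2 (0.61 ± 0.09, edgeR adjusted p = 2.62e-05) and Bcl2l1 (0.45 ± 0.09, edgeR adjusted p = 7.50e-04), which encodes BCL-XL. The pore former gene Bak1 rose by 0.36 ± 0.08 (edgeR adjusted p = 0.00234), and Xiap changed by -0.19 ± 0.05 (edgeR adjusted p = 0.0132). Hrk was higher in hIAPP than in rIAPP (1.14 ± 0.35, edgeR adjusted p = 0.0197), and Bcl2 lower (-0.52 ± 0.09, edgeR adjusted p = 1.41e-04).

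**Figure D5:**
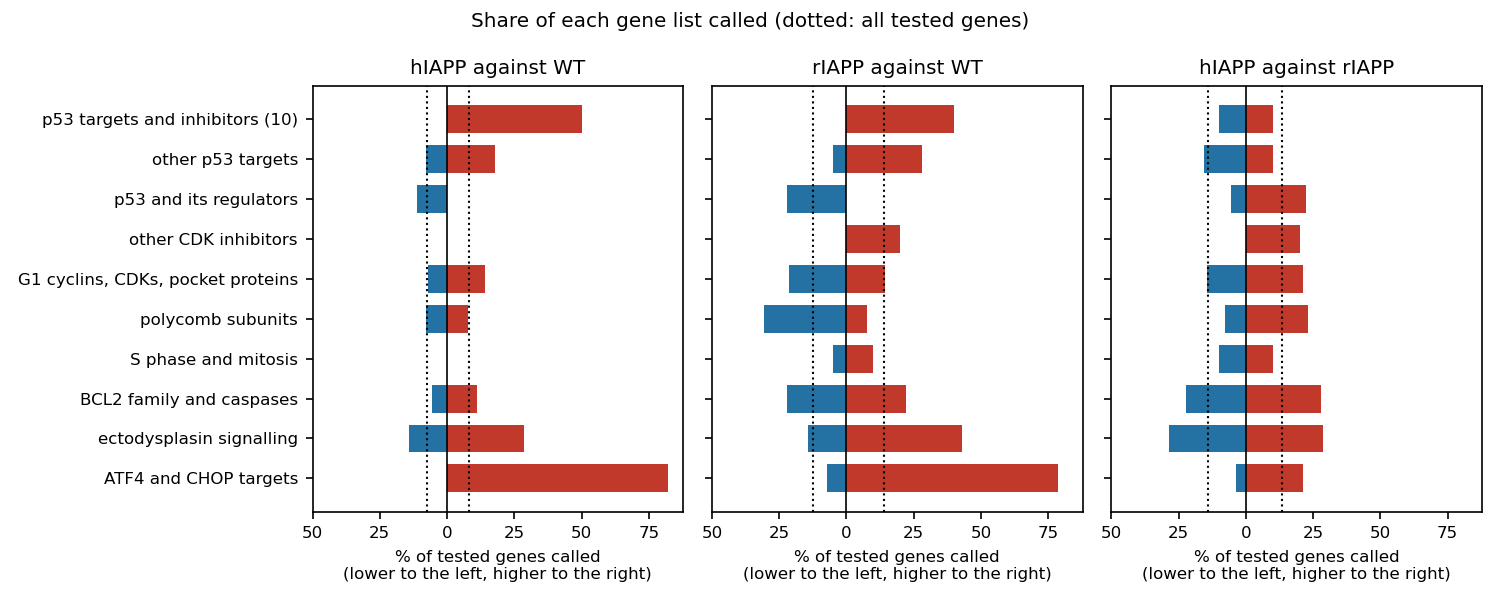
Percentage of tested genes called higher (red, to the right) and lower (blue, to the left) in each gene list and comparison, with dotted lines for all tested genes. The 10 genes reach 50% higher in hIAPP and 40% in rIAPP, below the ATF4 and CHOP targets at 82.1% and 78.6%.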

How the data were processed

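RNA from islets of 18 mice had been sequenced after depletion of ribosomal RNA, per the labels' protocols. The deposited values are estimated counts per gene symbol, not normalised, and the submitters' processing notes list HTSeq and STAR as tools and mm10 and GRCm38 as builds. No source used here says which step left 39.2% of the values above 0 not whole, or whether counting used strand. Values were rounded to whole numbers, which moved no value of the 10 genes by more than 0.492. Counts were fitted with edgeR 4.0.16 in R 4.3.3 (TMM, filterByExpr by genotype, 1 mean per genotype). Intervals are 95% intervals of the fit, log2 CPM used a prior count of 2, and limits from counts cover counting error only. Exon lengths and positions came from GENCODE release M21 on GRCm38, upstream sequences from RefSeq (GRCm38.p6). Marker scores were compared by exact permutation tests. Numbers within a genotype only name the libraries and pair none. The genes and lists were chosen with earlier results of these data known. All 10 genes are named, with some of the called genes of each other list, and the 5 genes most like Cdkn1a in pattern. A gene of these lists that is not named may still have been called. Alternatives were DESeq2 1.42.0, limma-voom (limma 3.58.1) with sample weights, other thresholds, filters and scaling, robust fitting, fitting each pair of genotypes alone, the acinar score or title number as a covariate, and leaving out libraries. The fit was tested on simulated data. Figures used matplotlib 3.10.9.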

Additional observations from a re-analysis of the deposited data

Results flagged for a closer look

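Phlda3 in rIAPP stood out for 1 library: rIAPP 6 had 1.98 CPM, while the other 5 rIAPP libraries had 3.46 to 4.10. Of 30 combinations of gene and genotype checked for such a library, this was the single one, where chance alone marks about 1 in 20. Without rIAPP 6 the Phlda3 value in rIAPP against WT was 0.74, and the adjusted p was 1.35e-04 by edgeR.

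The effects of the transgenes differed for 2 genes, by the test of hIAPP against rIAPP. These are 20% of the 10, where 27.6% of all tested genes were called. For Bbc3 the difference was 0.43 on the log2 scale (edgeR adjusted p = 0.0172), higher in 6 of 6 hIAPP libraries than in any rIAPP library, as for 6.52% of all tested genes. For Aen it was -0.54 (edgeR adjusted p = 8.58e-04), with 6 of 6 hIAPP libraries below the rIAPP median.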

How the results depend on the processing

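No paired analysis was possible because the labels give the genotypes no shared replicate numbers. Leaving out 1 library at a time gave 5 higher genes of the 10 in hIAPP against WT and 4 in rIAPP against WT each time, and 1 to 2 in hIAPP against rIAPP. No setting called any of the 10 lower than WT. With limma-voom, Trp53inp1 (0.21, adjusted p = 0.0462) and Eda2r (0.50, adjusted p = 0.0434) passed too in rIAPP against WT. The acinar score as a covariate left 2 of the 10 higher in hIAPP (Bbc3 and Ccng1, with 804 genes called in all) and 1 in rIAPP (Ccng1, 2074 in all). The score was higher than in WT by 1.65 in hIAPP and by 2.20 in rIAPP (log2). In both comparisons with WT, genotype and acinar content can thus be told apart only in part. Between hIAPP and rIAPP the score differed by -0.54 (exact permutation p = 0.275). With the covariate 5420 genes were called there, against 5586 without it. Without hIAPP 5 and hIAPP 6 together, 1675 genes were called in hIAPP against WT. With an adjusted p under 0.01, 1490, 3617 and 3598 genes were called for hIAPP against WT, hIAPP against rIAPP and rIAPP against WT, and 0 of the 10 were higher in hIAPP than in rIAPP. In that comparison 2 were higher with DESeq2, with a filter at a mean of 1 CPM and with the title number as a covariate, Trp53inp1 being added. The filter at a mean of 1 CPM left out Cdkn2a.

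Signs turned only for values that had not passed. In hIAPP against WT, Mdm2 was 0.0769 with library totals alone. Aen was -0.0417 with the acinar covariate, -0.0014 with the title number, -0.0622 without hIAPP 5 and hIAPP 6, -0.0866 with limma-voom, and -0.0591 to 0.0663 with 1 library left out. In rIAPP against WT, Mdm2 was 0.0687 with library totals alone. In hIAPP against rIAPP, Cdkn1a was -0.19 without hIAPP 5 and hIAPP 6 and -0.0432 with limma-voom. There Cdkn2a was 0.0654 with the acinar covariate, 0.14 without those 2 libraries, 0.0313 with limma-voom and -0.16 to 0.14 with 1 library left out. Mdm2 was -0.0025 with the title number, -0.0285 without those 2 libraries, -0.0033 with limma-voom and -0.0126 to 0.0372 with 1 left out. Phlda3 was -0.0424 with the title number and -0.0918 to 0.0841 with 1 left out, and Ccng1 -0.0018 to 0.0888 with 1 left out. The cause of these changes was not tested.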

Other observations

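Polycomb subunits are known to hold the Cdkn2a locus silent. Of 13 tested, 1 rose (Cbx2) and 1 fell (Rnf2) in hIAPP against WT, a share of 15.4% where 15.8% of all tested genes were called. Between hIAPP and rIAPP 30.8% of them were called, against 27.6% of all, and in rIAPP against WT 38.5%, against 26.8%. In rIAPP against WT, 4 fell (Rnf2, Ezh1, Cbx7 and Suz12) and 1 rose (Phc2). Rnf2, which encodes the ubiquitin ligase RING1B, had 76.2 CPM in WT, 63.5 in hIAPP and 52.1 in rIAPP, and differed between hIAPP and rIAPP by 0.29 ± 0.08 (log2, SE, edgeR adjusted p = 0.0116). Ezh1, a histone methyltransferase, and Cbx7, which binds the mark, were higher in hIAPP than in rIAPP by 0.33 ± 0.05 and 0.32 ± 0.06 (edgeR adjusted p = 2.44e-05 and 5.77e-04).

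The genes whose levels followed those of Cdkn1a most closely over the 18 libraries were Atf5, Galnt6, Cd40, Adamts4 and Col5a3, out of 14121 compared. Closeness was measured as the root mean square difference of log2 CPM after each gene was set to its own mean. It was 0.27 for Atf5, a transcription factor of stress responses, 0.34 for Galnt6, 0.35 for Cd40, 0.36 for Adamts4 and 0.38 for Col5a3. Of the 8 other p53 targets and inhibitors compared, Phlda3 came nearest, in place 7 (0.39), while Mdm2 came in place 4111 (0.67). Atf5 had 39.6 CPM in WT, 83.9 in hIAPP and 69.1 in rIAPP. Cdkn2a, with a mean under 1 CPM, was not compared. The libraries share their genotype, scaling and tissue makeup, so this is a description of these libraries.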
